A study of Homo sapiens with 6 samples.

Results

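Ribosomal proteins are the protein components of the large (RPL) and small (RPS) subunit of the ribosome, and their mRNAs are among the most abundant in growing cells. A processed pseudogene is a copy of such an mRNA that was reverse transcribed and inserted elsewhere in the genome, so it lacks the introns of its parent gene. Copies that entered the genome recently still carry nearly the parental sequence, while older copies have accumulated substitutions, gaps and stop codons. The human genome holds many copies of this kind for most ribosomal protein genes.

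FPKM are fragments scaled by gene length and by a size set for each library. The genes described here are the ribosomal protein pseudogenes that reached a mean of at least 1 FPKM over all 6 libraries. They were chosen by their annotated type, their name and this mean, and not by any difference between the groups. In all, 92 of the 58174 listed genes met the rule, out of 1137 pseudogenes with such a name. The mean level of these 92 is therefore a description, whereas their difference between the groups was open to testing. They are called expressed below because reads were assigned to them, and whether the copies themselves were transcribed was not tested. The parent of each was taken as the gene named before the P number, which gave 43 parents, 20 of them with 1 expressed copy and 13 with 3 or more.

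PolyA-enriched RNA was sequenced from A549 cells, an established human lung adenocarcinoma line. The 3 Ctrl libraries came from parental cells without a deletion, and the 3 MIR21-KO libraries from A549 cells in which MIR21, the gene of the microRNA miR-21, had been deleted by CRISPR/Cas9 with a pair of guide RNAs and single-cell sorting. All cells were harvested 48 h after seeding. The study describes the samples as independent, but the sources used here do not say from how many clones the deleted cells came. The p-values measure only the spread between these libraries.

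The libraries held 10631667 to 14345209 reads in genes, recovered from the FPKM values, and the shallowest was Ctrl 2. MIR21 itself was listed at 0 in all 6 libraries of this polyA RNA and so did not check the labels. The keratins KRT8 (352 to 499 FPKM) and KRT18 (335 to 688 FPKM), which mark epithelial cells, were high in every library, EPCAM was at 0.389 to 1.65 FPKM and the surfactant gene SFTPC at 0 to 0.0917 FPKM. The leukocyte marker PTPRC and the endothelial marker PECAM1 did not exceed 0.0240 FPKM. Of the fibroblast and mural cell markers, PDGFRB was at 0.0110 to 0.162 FPKM, but COL1A1 was at 3.28 to 4.51 FPKM, above EPCAM. In bulk RNA of this kind, fewer cells that express a gene and less RNA per cell cannot be told apart.

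Of the 92 expressed pseudogenes, 60 were copies of large subunit genes and 32 of small subunit genes. They lay on 23 chromosomes, and 85 consisted of 1 annotated exon. The annotation called 82 of them processed, 8 transcribed processed and 2 transcribed unprocessed pseudogenes. In all, 48 lay in no other gene, 19 lay within a gene on their own strand and 33 within a gene on the opposite strand, including 8 with both.

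The copies that met the level rule resembled their parents closely. When the annotated transcript of each pseudogene was aligned to the coding transcripts of its parent, the 92 had a median identity of 98% (76.8 to 100%) and a median longest exact stretch of 155 bases. The other 1034 aligned ribosomal protein pseudogenes had a median identity of 87.9% and a median exact stretch of 38 bases. An open reading frame of the full parental length was kept by 44 of the 92 (47.8%) and by 40 of the other 1034 (3.87%).

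The share of copies that met the level rule was larger in each higher band of identity. It was 1.11% of 633 copies under 90% identity, 2.34% of 342 copies at 90 to 95%, 22.5% of 71 at 95 to 97%, 55.6% of 27 at 97 to 98%, 80.8% of 26 at 98 to 99% and 92.6% of 27 at 99% or more. The median level of all copies in these bands was 0 FPKM in the lowest pair of bands, then 0.137, 2.03, 20.7 and 125.7 FPKM. Among the 92 themselves, identity and log2 mean FPKM correlated with a Pearson r of 0.44 and a Spearman rho of 0.67, across genes that share libraries and parents and are not independent.

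**Figure D1:**
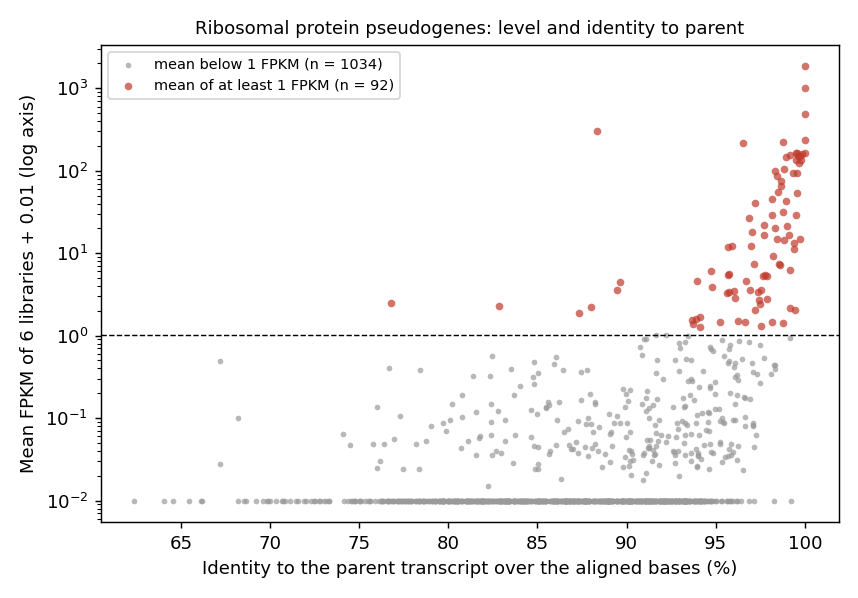
Mean FPKM of the 6 libraries plus 0.01 on a log axis against identity to the parent transcript in percent, for 1126 aligned ribosomal protein pseudogenes. Red points are the 92 with a mean of at least 1 FPKM (dashed line), grey points the other 1034; 77 of the red points sit at 95% identity or more, and the RPL9P9 and RPS18P12 points stand high at lower identity.

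In all, 5 expressed copies matched a coding transcript of their parent without a single difference over their annotated length, and 19 had at most 3 mismatches, no gap and full coverage. The identical copies were RPL21P16, RPS28P7, RPL39P3, RPL41P1 and RPL41P5. The shortest are shown because they include the copy with the highest level per length, with the start and stop codons in capitals. RPL41P1 lies at chr20:21755270-21755350 (GRCh38, plus strand), RPL41P5 at chr12:93083598-93083675 (minus strand) and RPL39P3 at chr6:73373108-73373263 (minus strand). All sequences shown are from the GENCODE 29 transcripts.
RPL41P1: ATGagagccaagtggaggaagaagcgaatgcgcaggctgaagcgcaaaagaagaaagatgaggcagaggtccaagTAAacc
RPL41P5: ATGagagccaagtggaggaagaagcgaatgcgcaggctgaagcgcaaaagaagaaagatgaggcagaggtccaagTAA
RPL39P3: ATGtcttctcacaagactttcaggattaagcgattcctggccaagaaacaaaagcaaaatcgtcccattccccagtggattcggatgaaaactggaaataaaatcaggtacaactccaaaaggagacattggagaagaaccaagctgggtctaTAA

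The 81 and 78 bases of the RPL41 copies are shorter than the 250 to 300 bp to which the libraries were size-selected. Within an identical stretch, a read from the copy and a read from the parent have the same sequence. How the authors assigned reads with more than 1 match is not given in the sources used here, so the split of reads between a near-identical copy and its parent is uncertain for every pair described.

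The other sequences set copies beside their parents, with the differing bases in capitals. They are shown for the called copy RPLP0P6, for abundant copies of RPL21 and RPL14 whose estimates differed in sign from the parent's, for RPS18P12, which stood above its parent, and for RPL23AP82, a diverged copy. Positions are counted from 1 at the A of the parental start codon, and the parental base is written first. RPL21P75 differed from RPL21 by G397A alone, and RPL21P16 not at all, in a window at chr10:120354757-120354817 (minus strand) for RPL21P16 and chr7:20003131-20003191 (plus strand) for RPL21P75.
RPL21: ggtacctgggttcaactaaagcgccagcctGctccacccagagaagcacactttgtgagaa
RPL21P16: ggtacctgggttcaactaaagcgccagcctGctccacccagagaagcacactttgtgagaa
RPL21P75: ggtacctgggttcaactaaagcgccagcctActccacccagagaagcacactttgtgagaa

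RPLP0P6, a copy of the ribosomal stalk protein gene RPLP0, had 11 mismatches over its full length and kept the open reading frame. The window with G576A, T617A, C618A and T686C lies at chr2:38482416-38482546 (plus strand).
RPLP0: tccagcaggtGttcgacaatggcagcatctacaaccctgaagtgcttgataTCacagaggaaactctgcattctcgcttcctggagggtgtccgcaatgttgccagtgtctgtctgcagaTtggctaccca
RPLP0P6: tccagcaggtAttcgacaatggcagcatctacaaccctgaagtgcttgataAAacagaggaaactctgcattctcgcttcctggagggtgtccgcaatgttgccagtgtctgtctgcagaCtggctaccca

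RPL14P1 had 8 mismatches to RPL14, of which C498G, C501G, C520T and G567A lie in the window at chr12:62965810-62965903 (plus strand).
RPL14: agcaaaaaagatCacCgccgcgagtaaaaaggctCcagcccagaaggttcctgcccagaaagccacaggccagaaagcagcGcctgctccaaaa
RPL14P1: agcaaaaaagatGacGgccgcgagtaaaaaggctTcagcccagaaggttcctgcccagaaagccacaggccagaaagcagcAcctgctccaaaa

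RPS18P12 had 16 mismatches to RPS18, 6 of them in the window at chr17:14705220-14705307 (minus strand). RPL23AP82, annotated as unprocessed, shows a more diverged copy (89.5% identity), here at chr22:50783757-50783846 (plus strand).
RPS18: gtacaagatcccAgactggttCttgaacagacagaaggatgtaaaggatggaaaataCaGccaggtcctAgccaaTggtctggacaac
RPS18P12: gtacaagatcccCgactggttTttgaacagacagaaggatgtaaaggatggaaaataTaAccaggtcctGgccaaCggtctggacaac
RPL23A: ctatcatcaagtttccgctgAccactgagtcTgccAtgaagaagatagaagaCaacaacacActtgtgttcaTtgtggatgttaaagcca
RPL23AP82: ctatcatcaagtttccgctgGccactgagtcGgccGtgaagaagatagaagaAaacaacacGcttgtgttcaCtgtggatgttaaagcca

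The level of the expressed copies spanned from 1.27 to 1847 FPKM with a median of 11.95. In all, 19 copies had a mean of at least 100 FPKM, 29 lay between 10 and 100 and 44 between 1 and 10. Mean reads per copy ran from 7 to 2756, with 9 copies under 10 reads and 45 at 100 or more. The highest level belonged to RPL41P1 (1847 FPKM), which alone took 25.3% of the summed FPKM of the 92 but only 5.16% of their reads, as its annotated length is 81 bases.

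Relative to the parent, most copies were minor. The median copy stood at 4.16% of its parent's FPKM. Such percentages rest on unlike gene lengths, such as 81 bases for RPL41P1 and 1088 for RPL41, with 1877 and 18369 mean reads. In all, 26 copies were at 10 to 100% of the parent, 32 at 1 to 10% and 26 under 1%. The other 8 exceeded the parent's FPKM. RPS28P7 stood at 1002 FPKM against 86.6 for RPS28, with annotated lengths of 210 and 2119 bases and 2680 against 2331 mean reads. RPS18P12 stood at 219.7 FPKM against 34.9 for RPS18, RPL9P9 at 302.5 and RPL9P7 at 125.7 against 99.1 for RPL9, and RPL41P1 at 1847 against 1327 for RPL41. RPL39P3 stood at 484.0 FPKM against 370.9 for RPL39, and RPS7P1 at 154.7 against 148.8 for RPS7. RPS10P3 had 12.1 FPKM against 0.741 for RPS10, where 39.4% of the exon bases of the parent are shared with RPS10-NUDT3. By reads rather than FPKM, only 3 copies exceeded their parents (RPS28P7, RPS18P12 and RPS10P3).

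The main comparison asked whether transcript levels differed between MIR21-KO and Ctrl cells. Few pseudogenes did by the threshold used here. RPLP0P6 was called higher in MIR21-KO (limma FDR below 0.01 over the 16006 genes whose mean reached 0.5 FPKM) and none of the 92 was called lower, while 7.66% of all tested genes were called higher and 8.38% lower. At an unadjusted p below 0.05, 14 copies were higher (20.7% of all tested genes) and 8 lower (22.5%). Limma voom on the recovered reads called 3 copies higher (9.57% of all tested genes) and 0 lower (12.4%). At an FDR below 0.05, 8 copies were higher (15.2% of all tested genes) and 4 lower (16.8%). The FPKM values of the groups did not overlap for 15 copies that were higher in MIR21-KO (22.8% of all tested genes) and 9 that were lower (25.2%).

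The direction leaned upward with a small size. The median log2 fold change of the 92 was 0.13 (quartiles -0.11 and 0.32), against -0.02 over all tested genes, and 62 lay above 0. It was 0.31 for the 19 copies of at least 100 FPKM, with 17 above 0. By depth, it was 0.19 for the 45 copies of at least 100 reads, with 36 above 0. For the 47 copies with under 100 reads it was 0.03, with 26 above 0. The other 658 pseudogenes of at least 1 FPKM had a median of 0.02, with 21 called higher and 21 called lower. This lean depended on MIR21-KO 1, without which the median was -0.05 with 42 copies above 0. It was 0.28 without MIR21-KO 3, where 8 copies were called, RPL26P30 among them with a negative log2 fold change. That fit called 3400 of the 16006 tested genes.

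The parent genes had a larger median change. Of the 43 parents, 39 had a log2 fold change above 0 with a median of 0.34, and limma called 0 of them at an FDR below 0.01 in either direction. At an unadjusted p below 0.05, 15 parents were higher and 0 lower, beside 20.7% and 22.5% of all tested genes. The FPKM values of the groups overlapped for 28 parents. Without overlap, 15 were higher in MIR21-KO (22.8% of all tested genes) and 0 lower (25.2%). Voom called 6 parents higher and 0 lower, beside 9.57% and 12.4% of all tested genes. Of all 79 cytosolic ribosomal protein genes, 1 (RPL28) was called, 73 lay above 0 and the median was 0.32.

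RPLP0P6 was at 86.9, 92.01 and 86.5 FPKM in Ctrl 1 to 3 and at 128.6, 120.8 and 117.2 FPKM in MIR21-KO 1 to 3. Every MIR21-KO library lay above every Ctrl library, and both groups were narrow. The means were 88.4 ± 3.09 and 122.2 ± 5.86 FPKM (SD, n = 3), a log2 fold change of 0.47 ± 0.08 (SE, limma FDR 0.00497). The parent RPLP0 was at 487.5, 525.6 and 522.7 FPKM in Ctrl and 930.9, 799.6 and 650.6 in MIR21-KO, a log2 fold change of 0.62 ± 0.14 (SE, limma FDR 0.0182). The log2 ratio of copy to parent overlapped between the groups (exact permutation test, two-sided p = 0.4). The FDR of RPLP0P6 lay above 0.01 in the fits without Ctrl 1, Ctrl 2, Ctrl 3 or MIR21-KO 2 (0.0220 to 0.0335), with log2 fold changes of 0.45 to 0.49. These fits called 768 to 922 of all tested genes, against 2568 with all 6 libraries. The fits without MIR21-KO 1 or without MIR21-KO 3 called 2193 and 3400 genes, RPLP0P6 among them. Why its FDR moved was not tested.

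The copies of RPL10, a large subunit protein that joins late in subunit assembly, came next. RPL10P9 was at 28.7, 37.5 and 31.7 FPKM in Ctrl and 63.6, 51.8 and 47.1 in MIR21-KO. RPL10P16 was at 128.0, 109.8 and 124.9 FPKM in Ctrl and 197.1, 170.6 and 156.1 in MIR21-KO. In neither did the groups overlap. The log2 fold changes were 0.73 ± 0.14 (SE, limma FDR 0.0103) for RPL10P9 and 0.53 ± 0.11 (SE, limma FDR 0.0145) for RPL10P16, close to 0.69 ± 0.16 (SE, limma FDR 0.0172) for RPL10, and neither copy was called. RPL10P16 shares 89 exon bases with AC010422.3 on its own strand, so reads there could belong to either. Voom called both copies.

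RPL15P3, RPS27AP16 and RPL37P23 were also higher in MIR21-KO with an FDR between 0.01 and 0.05. RPL15P3, a copy of a large subunit gene, was at 122.9, 130.5 and 110.8 FPKM in Ctrl and 156.8, 155.1 and 139.9 in MIR21-KO. RPS27AP16, from the gene of a ubiquitin and small subunit protein fusion, was at 53.4, 57.3 and 61.0 FPKM in Ctrl and 81.8, 75.6 and 64.7 in MIR21-KO. RPL37P23 was at 8.28, 7.27 and 7.71 FPKM in Ctrl and 18.97, 21.7 and 10.2 in MIR21-KO. The groups did not overlap in any of the 3, and MIR21-KO 3 was the lowest library of its group in each. Their log2 fold changes were 0.31, 0.37 and 1.05 with limma FDRs of 0.0456, 0.0411 and 0.0249, and RPL37P23 had the largest positive value of the 92.

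RPL3P4, a short copy of the gene for the peptidyl transferase centre protein RPL3, was at 109.2, 137.8 and 125.5 FPKM in Ctrl and 280.8, 187.3 and 145.6 in MIR21-KO. The groups did not overlap, although the MIR21-KO libraries differed widely among themselves. Its log2 fold change of 0.67 ± 0.24 (SE, limma FDR 0.0710) was close to that of RPL3 (0.61).

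**Figure D2:**
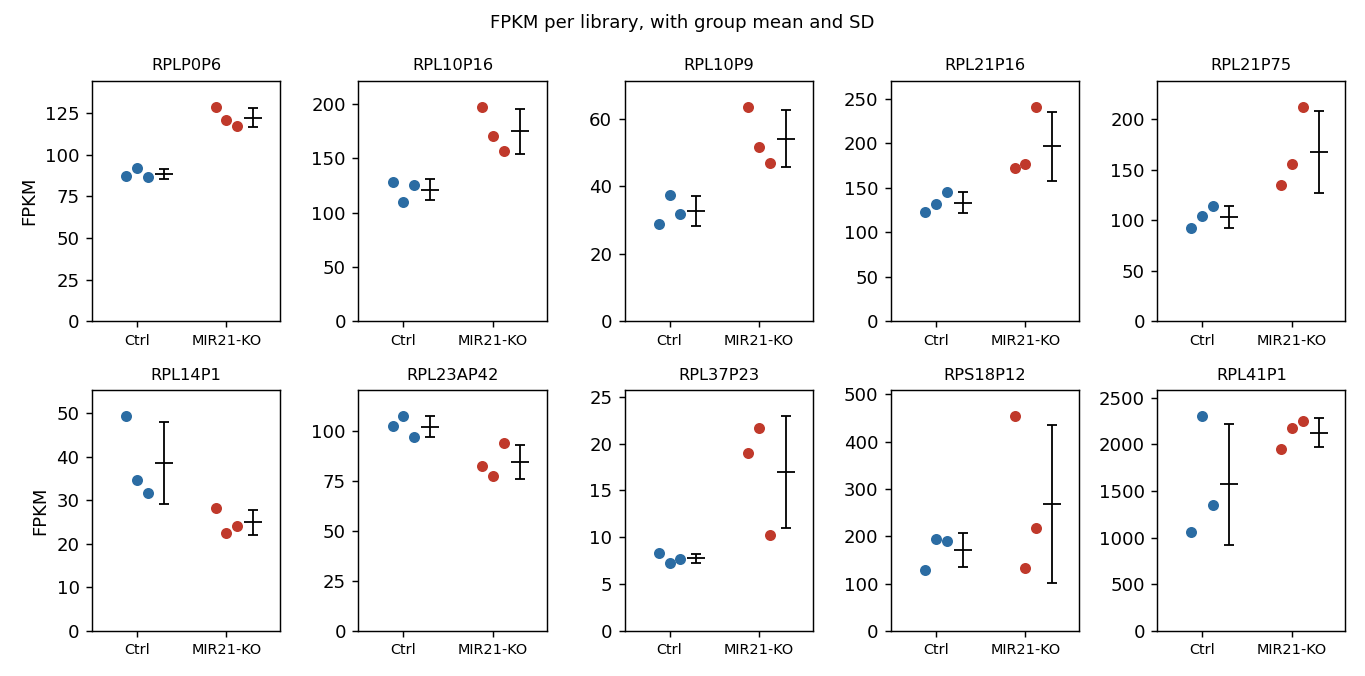
FPKM in each library (points, Ctrl blue and MIR21-KO red, replicates 1 to 3 from left to right) for 10 pseudogenes, with the group mean and SD (black, n = 3) and axes that start at 0. The MIR21-KO points of RPLP0P6 (117.2 to 128.6 FPKM) lie above those of Ctrl (86.5 to 92.01 FPKM), while RPL41P1 and RPS18P12 spread widely within a group.

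The most abundant RPL21 copies and their parent had estimates of opposite sign, although the ratio of copy to parent overlapped between the groups. RPL21 was at 181.6, 214.8 and 190.3 FPKM in Ctrl and 247.7, 195.0 and 127.9 in MIR21-KO, a log2 fold change of -0.09 ± 0.23 (SE, limma FDR 0.802). RPL21P16 was at 123.3, 131.7 and 145.9 FPKM in Ctrl and 172.2, 176.9 and 241.2 in MIR21-KO. RPL21P75 was at 92.1, 104.3 and 113.8 FPKM in Ctrl and 134.6, 155.6 and 212.1 in MIR21-KO. Both copies were highest in MIR21-KO 3, the library in which RPL21 was lowest, and both had non-overlapping groups.

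Their log2 fold changes were 0.54 ± 0.15 (SE, limma FDR 0.0324) for RPL21P16 and 0.67 ± 0.18 (SE, limma FDR 0.0281) for RPL21P75, so neither was called. Without MIR21-KO 3 they were 0.39 and 0.49. All 6 expressed RPL21 copies together took 22.1, 21.6 and 24.4% of the reads of RPL21 and its copies in Ctrl 1 to 3 and 22.6, 27.9 and 44.4% in MIR21-KO 1 to 3, so the groups overlapped. The copy-to-parent log2 ratio of RPL21P16 and that of RPL21P75 overlapped between the groups as well (exact permutation test, two-sided p = 0.2 for each). RPL21P75 shares 158 exon bases with AC005062.1 on the opposite strand.

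The 4 weaker RPL21 copies had negative log2 fold changes. RPL21P119 was at 11.3, 16.7 and 11.3 FPKM in Ctrl and 9.02, 7.998 and 10.9 in MIR21-KO, with non-overlapping groups and an FDR of 0.0991 by limma. RPL21P93 was at 1.45, 2.47 and 2.09 FPKM in Ctrl and 1.05, 0.835 and 0.788 in MIR21-KO, on 9, 13 and 14 reads against 7, 5 and 5. Its log2 fold change of -1.06 ± 0.23 (SE, limma FDR 0.0151) was the lowest of the 92, at a depth of only 8.83 mean reads. RPL21P28 (-0.18) and RPL21P39 (-0.60) had overlapping groups.

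Among copies with lower values in MIR21-KO, RPL14P1 was the most abundant with an FDR below 0.05. It was at 49.3, 34.7 and 31.7 FPKM in Ctrl and 28.2, 22.5 and 24.0 in MIR21-KO, without overlap, and Ctrl 1 stood well above its group. The log2 fold change was -0.61 ± 0.18 (SE, limma FDR 0.0395). RPL14, a large subunit gene, was at 56.5, 65.9 and 62.1 FPKM in Ctrl and 81.2, 71.2 and 61.8 in MIR21-KO, a log2 fold change of 0.21 ± 0.12 (SE, limma FDR 0.225). The share of RPL14P1 in the reads of the pair was 6.12, 3.79 and 3.68% in Ctrl and 2.53, 2.31 and 2.83% in MIR21-KO, and the log2 ratio did not overlap between groups (exact permutation test, two-sided p = 0.1, the smallest that 3 against 3 can give).

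RPL23AP42, 99.6% identical to RPL23A, was at 102.2, 107.2 and 96.7 FPKM in Ctrl and 82.4, 77.3 and 94.0 in MIR21-KO, and RPL7P9, 99.7% identical to RPL7, at 149.4, 167.7 and 156.0 against 146.0, 135.7 and 144.1. Both had non-overlapping groups with log2 fold changes of -0.27 and -0.15 (limma FDR 0.0723 and 0.207), while RPL23A and RPL7 had 0.32 and 0.20. RPL23AP42 overlaps exons of LINC02067 and AC112491.1 on the opposite strand.

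Lower values at low depth were seen for RPL12P14 and RPL26P30. RPL12P14 had 10, 12 and 19 reads in Ctrl and 5, 9 and 6 in MIR21-KO, or 1.603, 2.28 and 2.84 against 0.749, 1.5 and 0.944 FPKM. RPL26P30 had 21, 19 and 26 reads against 13, 13 and 19, or 2.56, 2.74 and 2.95 against 1.48, 1.65 and 2.27 FPKM. The log2 fold changes were -1.02 (limma FDR 0.0416) and -0.60 (limma FDR 0.0423), and neither was called.

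The most abundant copies did not pass the threshold. RPL41P1 was at 1054, 2300.4 and 1352 FPKM in Ctrl and 1949, 2172 and 2252 in MIR21-KO, so that Ctrl 2 exceeded every MIR21-KO library. Its log2 fold change was 0.51 ± 0.28 (SE, limma FDR 0.203) and became 0.83 without Ctrl 2. RPL41P5, with the same 78 bases, was at 239.7, 309.9 and 211.8 FPKM in Ctrl and 191.0, 206.3 and 276.7 in MIR21-KO, a log2 fold change of -0.18 (limma FDR 0.519). Thus the values assigned to copies with the same coding sequence differed in level and in the sign of the estimate. Neither estimate was called. Reads within these 78 bases cannot be told apart by sequence, so whether the copies themselves differed was not tested.

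RPS28P7, identical to the coding sequence of the small subunit gene RPS28, was at 864.9, 876.2 and 910.8 FPKM in Ctrl and 1432, 1133 and 795.2 in MIR21-KO. RPL39P3 was at 387.2, 445.8 and 394.2 FPKM in Ctrl and 687.4, 542.5 and 446.7 in MIR21-KO. RPL9P9 was at 260.0, 285.7 and 265.2 FPKM in Ctrl and 395.0, 316.6 and 292.4 in MIR21-KO. All 3 were highest in MIR21-KO 1, and the RPS28P7 value of MIR21-KO 3 lay below Ctrl. Their log2 fold changes of 0.30, 0.43 and 0.30 were close to those of RPS28 (0.41), RPL39 (0.45) and RPL9 (0.41), and the limma FDRs were 0.315, 0.0941 and 0.125. The 88.3% identity of RPL9P9 reflects 81 gap columns and only 1 mismatch.

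RPS18P12 had the largest SE of the 19 copies of at least 100 FPKM. It was at 128.9, 194.1 and 190.5 FPKM in Ctrl and 453.8, 133.6 and 217.2 in MIR21-KO. The parent RPS18, a small subunit gene, was at 40.9, 9.60 and 49.2 FPKM in Ctrl and 84.2, 21.2 and 4.63 in MIR21-KO. The copy held 43.2, 83.0 and 48.4% of the reads of the pair in Ctrl and 56.6, 60.4 and 91.9% in MIR21-KO. The log2 fold change of 0.49 ± 0.43 (SE, limma FDR 0.421) fell to 0.02 without MIR21-KO 1.

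RPS2P5, a copy of a small subunit gene, was at 210.5, 212.4 and 210.8 FPKM in Ctrl and 263.6, 241.4 and 189.7 in MIR21-KO, with a log2 fold change of 0.12 (limma FDR 0.524). The Ctrl libraries were nearly equal and the MIR21-KO libraries lay on both sides of them. RPL13AP5 was at 148.9, 142.7 and 152.7 FPKM in Ctrl and 198.0, 157.0 and 177.5 in MIR21-KO. Its groups did not overlap, and its log2 fold change of 0.26 ± 0.10 (SE, limma FDR 0.108) lay below the 0.69 ± 0.17 (SE, limma FDR 0.0209) of RPL13A.

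Whether a copy changed differently from its parent was asked with the log2 ratio of the copy to the parent in each library. The ratio of 2 copies was higher in every MIR21-KO library than in every Ctrl library (RPL37P23 and RPS26P3), that of 14 copies was lower in every one, and 76 overlapped. For 296 other pseudogenes with a parent in the table, 8.78% were higher without overlap and 9.46% lower. The 14 lower ratios included RPL13AP5, RPL13AP25 and RPL13AP20 of RPL13A, RPL12P14 of RPL12, RPL14P1, RPL7P9, RPL4P4 and RPS3AP26. The fold change of the copy was below that of the parent for 67 of 92 pairs with a median difference of -0.16, against 174 of the 296 other pairs and -0.09. Across the 92, the fold changes of copy and parent correlated weakly (Pearson r 0.16, Spearman rho 0.26), with copies of 1 parent sharing its value.

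**Figure D3:**
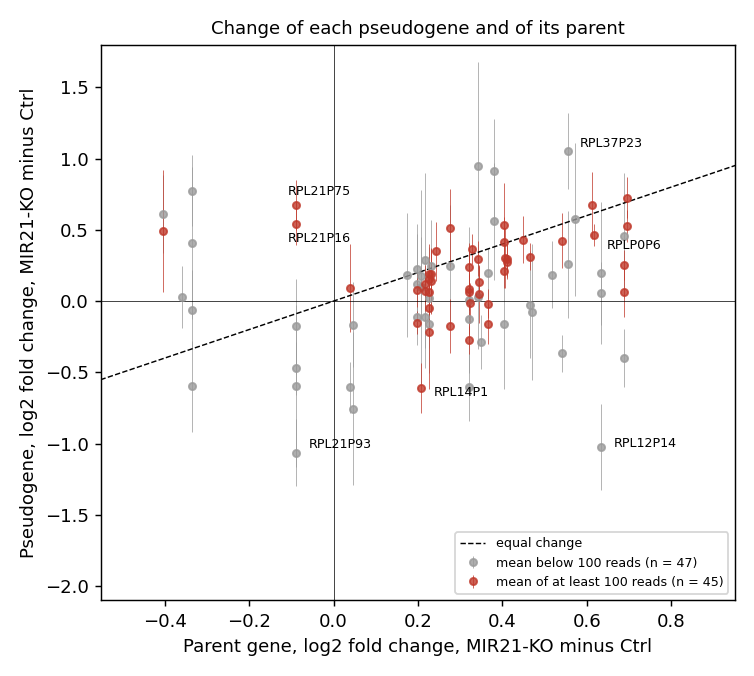
Log2 fold change (MIR21-KO minus Ctrl) of each of the 92 pseudogenes, with its SE, against that of its parent gene. The dashed line marks equal change; red points have a mean of at least 100 reads (n = 45) and grey points fewer (n = 47), and RPL21P16 and RPL21P75 lie above the line while RPL14P1 and RPL12P14 lie below it.

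Copies of the same parent often had estimates of both signs, though none of these copies was called. Whether copies of 1 parent differed from each other was not tested. Among the 13 parents with 3 or more expressed copies, the fold changes of the copies had 1 sign for RPL24 (0.14 to 0.24), RPS7 (0.21 to 0.54) and RPL7A (0.03 to 0.95). Both signs occurred for RPL12 (-1.02 to 0.20), RPL13A (-0.40 to 0.46), RPL21 (-1.06 to 0.67), RPL23A (-0.60 to 0.24) and RPL41 (-0.18 to 0.51). The same held for RPL7 (-0.15 to 0.23), RPS2 (-0.11 to 0.29), RPS26 (-0.60 to 0.77), RPS3A (-0.16 to 0.19) and RPSA (-0.22 to 0.19). RPSA, the laminin receptor and small subunit gene, had the most expressed copies (7), which stood at 2.76 to 54.2 FPKM.

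Pairs with the largest differences in fold change among copies of at least 10 reads also included weakly expressed genes. RPS26P8 was at 4.06, 10.4 and 2.52 FPKM in Ctrl and 7.17, 8.92 and 3.99 in MIR21-KO, and RPL7AP30 at 0.296, 2.57 and 0.551 against 2.40, 1.95 and 0.872. RPL13AP20 was at 4.13, 6.72 and 4.92 FPKM in Ctrl and 4.70, 3.49 and 3.54 in MIR21-KO. The groups overlapped in all 3, and their FDRs by limma were 0.596, 0.358 and 0.181. In RPS26P3, on 8, 6 and 6 reads against 15, 8 and 15, the values of 1.81, 1.603 and 1.26 FPKM and 3.16, 1.88 and 3.32 FPKM did not overlap (limma FDR 0.0558).

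Of the 7 copies with more than 1 exon, 6 were among the 10 annotated as transcribed, and the other was RPS18P9. Among these 10, RPL9P9, RPL6P27, RPS27AP16 and RPL37P6 had 1 exon, whereas RPL23AP7, RPL13P5, RPL26P30 and RPL23AP53 had 3, 4, 2 and 5 exons. The unprocessed RPL23AP82 and RPL32P3 had 6 and 7 exons. In RPL32P3 the aligned stretch covered only 3.62% of the longest annotated transcript, and in RPL23AP82 17.4%. Most of their reads can therefore lie outside the copied sequence. RPL23AP82 was at 3.64, 3.19 and 2.87 FPKM in Ctrl and 4.02, 4.02 and 3.45 in MIR21-KO, RPL32P3 at 2.70, 2.498 and 3.08 against 2.20, 2.79 and 3.77, and RPL23AP7 at 3.80, 4.76 and 4.67 against 4.97, 4.61 and 4.24. The groups of all 3 overlapped, with log2 fold changes of 0.24, 0.05 and 0.06.

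RPL13P5 was at 2.78, 2.97 and 2.67 FPKM in Ctrl and 1.89, 2.38 and 2.21 in MIR21-KO, and RPL23AP53 at 2.92, 2.54 and 2.43 against 1.15, 2.08 and 2.03. The groups did not overlap, and the log2 fold changes were -0.37 and -0.60 (limma FDR 0.0748 and 0.101). RPL13P5 shares 561 exon bases with LRRC23 and 60 with DSTNP2 on its own strand, and 228 with SPSB2 on the other. RPL6P27 was at 76.1, 95.5 and 71.6 FPKM in Ctrl and 128.5, 109.0 and 76.7 in MIR21-KO, and RPL37P6 at 2.14, 5.999 and 2.90 against 4.37, 4.86 and 3.06. Both had overlapping groups, with log2 fold changes of 0.35 and 0.26.

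In all, 11 copies shared exon bases with another gene on either strand. Besides those named, these were RPSAP58 (21 bases, AC139769.2), RPSAP19 (221 bases, LINC01709), RPL23AP2 (253 bases, AD000091.1) and RPS18P9 (206 bases, KATNA1), all with the opposite strand. RPL23AP82 (167 bases, RABL2B), RPL32P3 (3 bases, AL449212.1) and RPL23AP53 (95 bases, ZNF596) did so as well. The strand setting of the authors' counting is not given in the sources used here.

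Most copies had the same highest library within a group. Within the MIR21-KO group, 68 of 92 copies were highest in MIR21-KO 1, as were 40.8% of all tested genes, and 67 of 92 were highest among Ctrl libraries in Ctrl 2, as were 34.3% of all tested genes. For the copy-to-parent ratio the highest library was Ctrl 2 in 54 and MIR21-KO 3 in 53 of 92 pairs. The summed FPKM of the 79 ribosomal protein genes was 23516, 26298 and 25143 in Ctrl and 39241, 32478 and 25258 in MIR21-KO (exact permutation test, two-sided p = 0.2), also highest in MIR21-KO 1. The part of these library differences in the results above was not tested.

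Summed over all 92, the FPKM were 5702, 7588 and 6174 in Ctrl and 9065, 7889 and 7457 in MIR21-KO, a ratio of 1.25 with overlapping groups (exact permutation test, two-sided p = 0.2). Their share of all reads was 0.245, 0.287 and 0.256% in Ctrl and 0.344, 0.295 and 0.289% in MIR21-KO. These shares did not overlap, at the smallest p that 3 against 3 can give (exact permutation test, two-sided p = 0.1), and MIR21-KO 3 lay only just above Ctrl 2. As a share of the reads of copies and parents together, the 92 took 5.78, 6.09 and 5.71% in Ctrl and 5.16, 5.08 and 5.998% in MIR21-KO (exact permutation test, two-sided p = 0.3). Here MIR21-KO 1 and MIR21-KO 2 were the lowest of all 6 libraries.

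**Figure D4:**
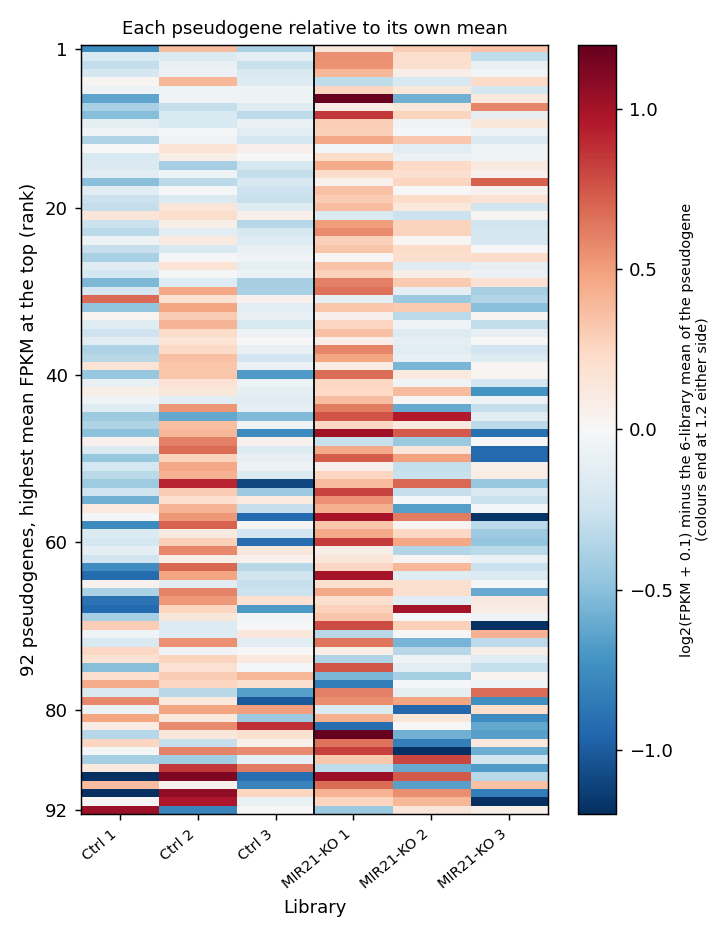
Log2(FPKM + 0.1) of each of the 92 pseudogenes (rows, highest mean FPKM at the top) minus its own mean over the 6 libraries (columns), with red above and blue below that mean. The MIR21-KO 1 column is mostly red, and the Ctrl 2 column is red for many of the less abundant copies; 68 and 67 of the 92 were highest of their group in these libraries.

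Just inside the level rule were RPS19P3 (1.27 FPKM), RPL21P39 (1.29 FPKM) and RPL5P4 (1.37 FPKM), on 7.17, 7.67 and 15.0 mean reads. RPS19P3 was at 2.49, 0.633 and 1.16 FPKM in Ctrl and 0.832, 1.30 and 1.22 in MIR21-KO, RPL21P39 at 1.139, 2.31 and 1.06 against 1.37, 1.52 and 0.319, and RPL5P4 at 0.355, 2.52 and 1.403 against 1.57, 1.75 and 0.609. All 3 overlapped between the groups. Just outside were RPL23AP25 (0.99991 FPKM), RPL23P2 (0.9998 FPKM) and RPL39P36 (0.988 FPKM), on 5.83, 5.33 and 1.83 mean reads and with identities of 91.7, 92.2 and 93.5%.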

How the data were processed

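The authors prepared polyA-enriched, strand-specific libraries and deposited FPKM values per gene, made per the labels with cutadapt 1.14, HISAT2 2.1.0 (hg38), SAMtools 1.5, featureCounts 1.5.3 and edgeR 3.18.1. The annotation release, the strand setting and the handling of reads with several matches are not given in the sources used here. The 3 columns of the authors' own comparison (log fold change, p-value, FDR) were not used. Value times gene length gave whole reads for 100% of values (tolerance 0.001), so depth is known: 10631667 to 14345209 reads per library. The FPKM implied library sizes of 0.950, 0.984 and 1.03 times these reads in MIR21-KO 1 to 3. In each Ctrl library the size was 1.01 times the reads. With scaling by total reads instead, the median log2 fold change of the 92 was 0.09, with 58 above 0.

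Log2(FPKM + 0.1) of the 16006 genes whose mean reached 0.5 FPKM was fitted with limma 3.58.1 in R 4.3.3 (trend and robust, two-sided), with the Benjamini-Hochberg FDR over all tested genes and a call below 0.01. Fold changes are on this scale, which understates those of low genes. All 92 pseudogenes passed the filter, since their own rule was stricter. Alternatives were limma voom on the recovered reads (3520 genes called, against 2568), other filters, pseudocounts and scalings, removal of GC and length trends, the replicate block and leaving out each library. Copy-to-parent ratios and sums were compared with exact permutation tests over the libraries.

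Copies were aligned to each coding transcript of the parent in GENCODE 29 (GRCh38) with Biopython 1.88 (local, match 2, mismatch -3, gap -5 and -2). The best-scoring transcript was used in place of the planned longest one, and 84 of 92 identities agreed within 1 point. Of the listed genes, 57836 matched GENCODE 29 by identifier. The fits were also run on simulated data in which no gene of low depth was changed, so that run does not speak for copies at low depth.

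Members, gene lists and named genes were chosen with earlier results of these data known. The rule for names took the 10 highest copies, called copies, the 5 largest differences from the parent either way (at least 10 reads), the 3 copies next to the level limit on each side, transcribed types, overlaps and families by range. Copies named outside this rule, such as RPL10P9, RPL37P23, RPL15P3, RPL23AP42, RPL7P9, RPL21P93, RPS26P3 and those above their parent, were chosen after their values were seen. Same-numbered libraries did not deviate together (correlations -0.17, -0.02 and -0.02), so replicate numbers were not taken as pairs.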

Additional observations from a re-analysis of the deposited data

How the results depend on the processing

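With 1 called pseudogene, the count moved under many settings. Copies called higher numbered 0 with the replicate block and 0 without trend or robust fitting, 2 with a mean of at least 1 FPKM, with at least 10 reads or with GC and length trends removed, 3 with scaling by total reads or voom, 4 with GC and length trends removed together with the replicate block, and 8 at an FDR below 0.05, where 4 were lower. Leaving out each library gave 0 to 7 higher and 0 to 1 lower. RPLP0P6 had an FDR of 0.00184 to 0.0390 over all settings, with 0.0390 under the block and 0.0120 without trend or robust fitting. Parents called higher numbered 3 with total reads, 6 with voom, 7 with GC and length trends removed, 1 with these and the block, 7 at an FDR below 0.05 and 0 to 19 without each library. Counted in both directions, all genes called numbered 2718 with total reads, 3520 with voom and 3960 of 15955 with GC and length trends removed. They numbered 1770 with these trends removed and the block, and 1946 without trend or robust fitting. A mean of at least 1 FPKM gave 2574 of 13669, and at least 10 reads gave 3245 of 15795. Over all genes the block alone gave 379 higher and 272 lower, in place of 1226 and 1342. The FDR limit of 0.05 gave 2428 and 2686, GC and length trends removed 2136 lower, and leaving out each library 388 to 1599 higher and 368 to 1801 lower. Same-numbered libraries did not deviate together, so the replicate numbers were not taken as pairs. Whether a call lost with the block reflects a weaker effect was not tested.

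Pairs whose copy-to-parent ratio did not overlap numbered 2 to 9 higher and 15 to 37 lower without each library (37 without MIR21-KO 3, 9 without Ctrl 2), and 1 higher with at least 10 reads. With 1 library fewer, groups fail to overlap more easily. Shares of the 296 other pairs are not given for these settings, so the counts cannot be read as a trait of these copies. The log2 ratio of the summed level, 0.33, stayed between 0.24 and 0.45. Fold changes near 0 turned sign: RPS2P5 -0.011 with GC and length trends removed, with or without the block, RPL5P4 -0.0024 with a pseudocount of 1 and RPL32P3 -0.0050 with voom. Without each library RPS26P8 ranged from -0.038 to 0.96, RPS19P3 from -0.59 to 0.32, RPL21P39 from -0.95 to 0.029, RPL5P4 from -0.61 to 0.65, RPL23AP7 from -0.037 to 0.12, RPL37P6 from -0.053 to 0.67 and RPL32P3 from -0.14 to 0.23. Why these values moved was not tested. Depth limits the 9 copies under 10 mean reads most.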
